A study of Mus musculus with 10 samples.

Results

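The 10 genes described here encode chemokines, cytokines and growth factors that myoblasts release, namely *Ccl2*, *Ccl7*, *Cxcl1*, *Cxcl5*, *Cxcl12*, *Csf1*, *Il6*, *Lif*, *Vegfa* and *Hgf*. They were taken by symbol from the gene table of an RNA-seq experiment, in which all 10 were found once among 55359 genes. The cells were C2C12, a line of mouse myoblasts that fuse into myotubes in low serum, transfected with a control siRNA (si-Control) or an siRNA against *Fndc1* (si-*Fndc1*). No other alteration is labelled in either group, and the cells received 100 nM of siRNA and were differentiated for 4 days per the labels, while the series description gives an earlier harvest, counted from transfection. There were 5 libraries in each group, and no label tells whether they came from separate cultures, so that p-values measure only the spread between these libraries, which may be technical. *Fndc1* codes for a secreted protein with fibronectin type III domains.

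Chemokines are small secreted proteins that guide leukocytes along a gradient through G protein-coupled receptors, and they are named by the spacing of their first cysteines, adjacent in the CC class (*Ccl2* and *Ccl7*) and separated by another residue in the CXC class (*Cxcl1*, *Cxcl5* and *Cxcl12*). CXC chemokines with the motif glutamate, leucine, arginine before the first cysteine attract neutrophils, and CXCL12, which lacks it, acts through CXCR4. *Csf1* is the growth factor of macrophages, *Il6* and *Lif* are cytokines of the family that signals through gp130 (*Il6st*), *Vegfa* directs vessel growth through FLT1 and KDR, and *Hgf* activates satellite cells, the stem cells of muscle, through MET. In injured muscle such factors recruit monocytes and neutrophils, feed macrophages and act on the myogenic cells themselves.

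The coding sequences show how the chemokine members differ in the region that gives the classes their names. They were read from GENCODE transcripts of the mouse build NCBIM37, in sense, from 8 codons before the first cysteine of the pair, and the capitals mark the codons of that pair. *Ccl8*, a CC chemokine that lies in the same cluster, is shown beside *Ccl2* and *Ccl7*.
Ccl2: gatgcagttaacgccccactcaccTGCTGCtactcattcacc
Ccl7: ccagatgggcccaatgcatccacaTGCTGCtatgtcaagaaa
Ccl8: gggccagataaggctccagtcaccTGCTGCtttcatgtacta
Cxcl1: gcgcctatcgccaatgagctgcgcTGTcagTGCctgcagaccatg
Cxcl5: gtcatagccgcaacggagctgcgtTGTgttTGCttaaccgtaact
Cxcl12: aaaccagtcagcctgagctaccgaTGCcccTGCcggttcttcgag
No codon lay between the cysteines of *Ccl2*, *Ccl7* and *Ccl8*, and 1 codon lay between those of *Cxcl1*, *Cxcl5* and *Cxcl12*. The codons for glutamate, leucine and arginine stood directly before the first cysteine in *Cxcl1* and *Cxcl5* and not in *Cxcl12*. The windows of *Cxcl1* (chr5:91320498-91320542), *Cxcl5* (chr5:91188729-91188773) and *Cxcl12* (chr6:117121502-117121546), all on the plus strand, each lie in exon 2. Those of the CC genes, on the plus strand of chromosome 11, run from the end of exon 1 into exon 2, in *Ccl2* (chr11:81849239-81849239 and chr11:81849985-81850025), *Ccl7* (chr11:81859358-81859361 and chr11:81860020-81860057) and *Ccl8* (chr11:81928808-81928814 and chr11:81929541-81929575). The longest stretch of bases that transcripts of *Ccl2* and *Ccl7* shared was 23 bases, and for *Cxcl1* and *Cxcl5* it was 11 bases.

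The libraries held 66771605 to 75995168 counted reads in si-Control, against 56332844 to 72839369 in si-*Fndc1*. *Fndc1* itself was at 27.8 ± 2.04 FPKM in si-Control and at 20.9 ± 1.70 FPKM with the knockdown. FPKM are fragments scaled by transcript length and library size, given here as mean ± SD over 5 libraries. The ranges of the groups did not overlap, and by this measure the knockdown was partial. The log2 fold change of *Fndc1* was -0.40, at a transcript GC content of 60.1%. Over all tested genes, higher GC content went with lower fold changes, as described below. No value of *Fndc1* with the GC and length correction is reported here. How much of its fall goes with that trend was not tested. Of 13 muscle markers, 12 were high enough to be tested, and their summed level was 4146 to 4623 FPKM in si-Control, against 3889 to 4629 FPKM in si-*Fndc1*. The leukocyte markers *Ptprc*, *Adgre1* and *Tyrobp* had no count in any library, which allows up to 0.0395 to 0.0533 CPM (counts scaled to library size), and of the 12 leukocyte markers 2 were tested and neither was called by edgeR or DESeq2 or had an unadjusted p under 0.05, with a summed level of 4.56 to 5.09 FPKM in si-Control against 4.03 to 5.08 FPKM. None of 8 endothelial markers reached the level for a test, and *Cdh5* and *Emcn* had no count. Of the muscle markers 3 were called higher and 1 lower, and 3 and 3 after the GC and length correction described below. The summed level of 9 fibroblast markers was separate between the groups, 986 to 1130 FPKM in si-Control against 816 to 864 FPKM in si-*Fndc1*. The fibroblast markers did not move together, since of 7 tested 2 were called higher and 3 lower. Transcripts of liver were also separate between the groups. All 13 tested genes of a list of 16 liver genes were higher in si-*Fndc1*, and the summed level of the list was 0.251 to 6.12 FPKM in si-Control against 51.1 to 182 FPKM in si-*Fndc1*. The part of the liver and fibroblast transcripts in the differences below was not tested. Liver sums are set beside the levels of *Ccl8*, *Cxcl12*, *Cxcl1*, *Cxcl5* and *Il6* below, and no fibroblast value is set beside a member. In bulk RNA, fewer cells of a type and less RNA per cell cannot be told apart.

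Differences were tested with edgeR's quasi-likelihood test on counts, with Benjamini-Hochberg adjustment over the 13548 genes whose mean level over the 10 libraries reached 0.5 FPKM, and a gene was called at an adjusted p under 0.05. Of the 10 members 7 reached that level, and *Cxcl1*, *Cxcl5* and *Il6* did not. Among the 7, *Cxcl12* and *Ccl7* were called higher in si-*Fndc1*, which is 2 of 7, against 17.3% of all tested genes called higher. *Csf1* and *Lif* were called lower, again 2 of 7, against 17.2% of all tested genes. Groups had separate ranges for 3 of the 7 (*Cxcl12*, *Csf1* and *Lif*), against 25.1% of all tested genes. With so broad a background, the counts say little about the members as a set, and the description below is of each gene. The libraries of si-*Fndc1* also differed from si-Control along GC content, and for that reason each value was recomputed after removing the trend with GC content and transcript length in every library (the GC and length correction, 11185 genes, of which 11.9% were then called higher and 11.3% lower). With it, *Cxcl12* alone of the 7 was called higher and *Csf1* alone lower.

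**Figure D1:**
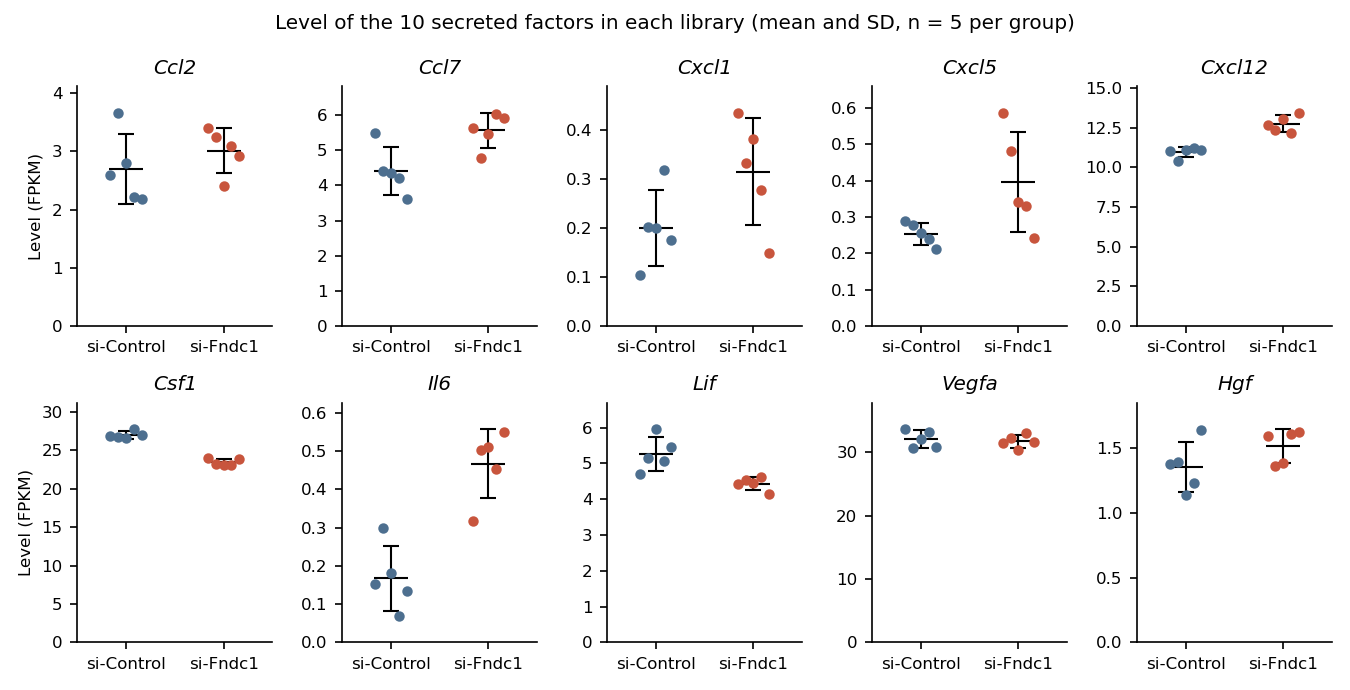
Level of each of the 10 secreted factors (FPKM, linear axis from 0, a separate scale for each gene) in the 5 si-Control and 5 si-*Fndc1* libraries. Points are libraries, the long bar is the mean and the error bars are the SD. The groups are separate for *Cxcl12*, *Csf1*, *Il6* and *Lif*, and overlap for the other 6 genes.

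*Ccl2* and *Ccl7* encode monocyte attractants that share the receptor CCR2, and their genes, listed on chromosome 11 (81926397 to 81928279 and 81936538 to 81938351, plus strand, coordinates as listed in the gene table), start 10.1 kb apart. *Ccl2* was at 2.59, 3.67, 2.80, 2.22 and 2.19 FPKM in si-Control replicates 1 to 5 and at 3.40, 3.26, 2.40, 3.09 and 2.92 FPKM in si-*Fndc1*, from 186 to 332 counts per library. The highest library of all was a si-Control library, and the groups overlapped throughout. Its log2 fold change was 0.17 (95% interval -0.14 to 0.48, adjusted p = 0.436), so that a change of *Ccl2* of that size was not larger than the spread between libraries.

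*Ccl7* was at 5.50, 4.42, 4.35, 4.21 and 3.62 FPKM in si-Control and at 5.64, 4.77, 5.48, 6.04 and 5.93 FPKM in si-*Fndc1*. In si-*Fndc1* 3 of 5 libraries lay above every si-Control library, and si-Control replicate 1 lay within the range of si-*Fndc1*. The mean rose from 4.42 ± 0.683 to 5.57 ± 0.501 FPKM (SD, n = 5 each), a log2 fold change of 0.34 (SE 0.12, adjusted p = 0.0485). This call rests on a narrow margin. Its call was lost without any one of si-Control replicates 2 to 5 or si-*Fndc1* replicates 1, 3, 4 and 5, with adjusted p = 0.0754 to 0.101 by edgeR's test, and it was kept without si-Control replicate 1 (adjusted p = 0.0136) or si-*Fndc1* replicate 2 (adjusted p = 0.0334). With the GC and length correction the fold change of *Ccl7* was -0.083 (adjusted p = 0.639), and that of *Ccl2* was -0.19 (adjusted p = 0.408).

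Another CC chemokine gene of the cluster, *Ccl8*, lies 79.6 kb from *Ccl2* and had a larger fold change than both members, a difference between genes that was not tested. It was at 2.17, 4.00, 2.97, 1.64 and 3.59 FPKM in si-Control and at 6.50, 4.94, 6.38, 5.32 and 5.97 FPKM in si-*Fndc1*. Every si-*Fndc1* library lay above every si-Control library, with a mean ratio of 2.03. The log2 fold change of *Ccl8* was 1.02 (SE 0.23, adjusted p = 0.00540), and with the GC and length correction it was 0.70 (adjusted p = 0.0347), or 0.75 with the replicate number as a block in addition (adjusted p = 0.0544). The si-*Fndc1* library with the lowest liver sum, replicate 5, had 5.97 FPKM of *Ccl8*, above all si-Control libraries. Replicate 1, with the next lowest liver sum, had the highest level, 6.50 FPKM. The other genes of the cluster gave little or no signal. *Ccl12* and *Ccl1* had no count in any library, and *Ccl11*, the eotaxin gene between *Ccl7* and *Ccl12*, had 0 to 22 counts per library.

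**Figure D2:**
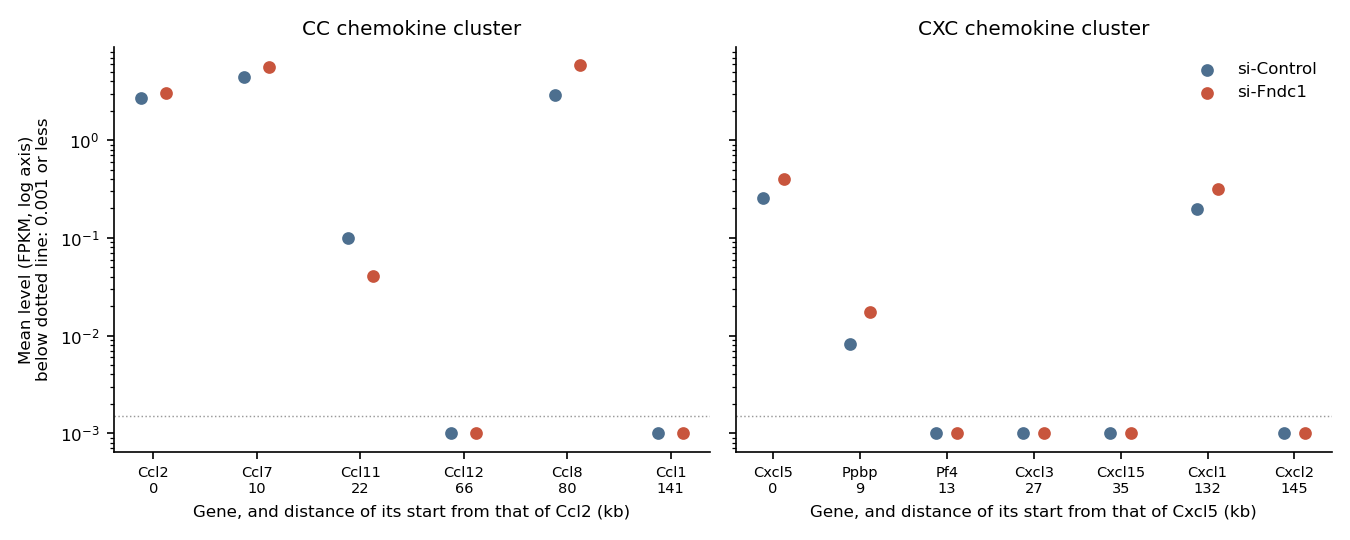
Mean level (FPKM, log axis, n = 5 per group) of the genes of the CC chemokine cluster around *Ccl2* and *Ccl7* and of the CXC chemokine cluster around *Cxcl5* and *Cxcl1*, in order of the distance of their starts (kb). Points below the dotted line are genes with no count in any library. *Ccl2*, *Ccl7* and *Ccl8* lie between 2.69 and 5.82 FPKM, and *Cxcl1* and *Cxcl5* are the CXC genes of their cluster above 0.1 FPKM.

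*Cxcl12* (chromosome 6, 117145496 to 117158328, plus strand) was the chemokine with the most RNA, and it rose. Its level was 11.0, 10.4, 11.1, 11.2 and 11.1 FPKM in si-Control and 12.7, 12.3, 13.1, 12.2 and 13.5 FPKM in si-*Fndc1*, from 6728 to 8397 counts per library. All 5 si-*Fndc1* libraries lay above all 5 si-Control libraries, although by a small step. The mean went from 11.0 ± 0.334 to 12.8 ± 0.520 FPKM (SD, n = 5 each), a ratio of 1.16 and a log2 fold change of 0.23 (SE 0.03, adjusted p = 0.000599). *Cxcl12* kept its direction and its call in all 20 alternatives run, with fold changes of 0.20 to 0.27, the GC and length correction among them (0.27, adjusted p = 0.000418). The highest level of all was in si-*Fndc1* replicate 5, the library of that group with the least liver RNA. Replicate 1, with the next lowest liver sum, was at 12.7 FPKM, in the middle of its group.

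*Cxcl1* and *Cxcl5*, the attractants of neutrophils, lie in a cluster on chromosome 5 with starts 132 kb apart and were near the lower end of what the libraries could measure, with 17 to 65 and 29 to 87 counts per library. *Cxcl1* was at 0.103, 0.201, 0.199, 0.317 and 0.175 FPKM in si-Control and at 0.434, 0.333, 0.380, 0.276 and 0.148 FPKM in si-*Fndc1*. *Cxcl5* was at 0.289, 0.277, 0.255, 0.238 and 0.213 FPKM in si-Control and at 0.587, 0.482, 0.341, 0.330 and 0.242 FPKM in si-*Fndc1*. For both genes si-*Fndc1* replicate 5 lay within the si-Control range, whereas 3 and 4 of the other libraries, respectively, lay above it. Replicate 5 was also the si-*Fndc1* library with the lowest liver sum, 51.1 FPKM against 99.3 to 182 FPKM in the other 4. Replicate 1, with the next lowest liver sum (99.3 FPKM), had the highest level of both genes. Whether the levels of *Cxcl1* and *Cxcl5* depend on the liver transcripts was not tested. Since both were under the limit for the count test, their FPKM were compared by two-sided exact permutation tests, which with 5 against 5 libraries cannot give a p below 0.00794. The ratio of the means was 1.58 for *Cxcl1* (exact permutation p = 0.0952) and 1.56 for *Cxcl5* (exact permutation p = 0.0317). Among the 4309 genes with a mean of 0.1 to under 0.5 FPKM, 7.94% were higher in si-*Fndc1* with such a p under 0.05. The result for *Cxcl5* turned on single libraries, since the exact p was 0.0635 without any one of si-Control replicates 4 and 5 or si-*Fndc1* replicates 1 to 4. When edgeR was run without a limit on the level (28952 genes, 7.62% called higher and 6.76% lower), neither gene was called, with log2 fold changes of 0.67 for *Cxcl1* (adjusted p = 0.251) and 0.65 for *Cxcl5* (adjusted p = 0.140). *Pf4*, *Cxcl3*, *Cxcl15* and *Cxcl2*, which lie in the same cluster, had no count in any library. *Cxcl2* and *Cxcl3* share a stretch of 110 bases, longer than that between any members, so that how reads of *Cxcl2* and *Cxcl3* were counted is uncertain.

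*Il6* (chromosome 5, 30218112 to 30224979, plus strand) had the largest relative difference of the 10 members, at a low level. It was at 0.153, 0.299, 0.180, 0.0685 and 0.135 FPKM in si-Control and at 0.318, 0.503, 0.511, 0.454 and 0.550 FPKM in si-*Fndc1*. These levels came from 32, 59, 35, 14 and 25 counts and from 63, 100, 99, 89 and 85 counts. Each si-*Fndc1* library lay above each si-Control library, the closest being si-*Fndc1* replicate 1 and si-Control replicate 2. The mean rose from 0.167 ± 0.0843 to 0.467 ± 0.0902 FPKM (SD, n = 5 each), a ratio of 2.80 (two-sided exact permutation p = 0.00794, the smallest that 5 against 5 allow). Non-overlap with si-*Fndc1* higher was seen in 3.57% of the 4309 genes of that range of levels. The edgeR test without a limit on the level called *Il6*, by 1.48 on the log2 scale (adjusted p = 0.0109). *Il6* transcripts have the lowest GC content of the 10 members, 35.1%. In a fit with the GC and length correction that admitted genes from 0.1 FPKM (12737 genes, 11.3% called higher), the fold change was 1.10 (adjusted p = 0.0312). The highest *Il6* level, 0.550 FPKM, was in si-*Fndc1* replicate 5, which had the lowest liver sum of its group. The lowest of that group, 0.318 FPKM, was in replicate 1, which had the next lowest liver sum. A relation of *Il6* to the liver transcripts was not tested.

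*Lif* (chromosome 11, 4207557 to 4222514, plus strand), the other cytokine of the gp130 family among the members, went the other way. It was at 4.71, 5.15, 5.96, 5.07 and 5.46 FPKM in si-Control and at 4.41, 4.53, 4.44, 4.63 and 4.14 FPKM in si-*Fndc1*. The highest si-*Fndc1* library lay just below the lowest si-Control library. The mean fell from 5.27 ± 0.468 to 4.43 ± 0.184 FPKM (SD, n = 5 each), a log2 fold change of -0.24 (SE 0.07, adjusted p = 0.0164). The fold change of *Lif* was -0.18 with the GC and length correction, where it was no longer called (adjusted p = 0.0648).

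*Csf1* (chromosome 3, 107648364 to 107667785, minus strand) was, after *Vegfa*, the member with the most RNA, and its libraries were the most even. Its level was 26.9, 26.7, 26.6, 27.7 and 27.0 FPKM in si-Control and 24.0, 23.2, 23.1, 23.0 and 23.8 FPKM in si-*Fndc1*, from 7852 to 11996 counts per library. The groups were far apart relative to their spread, with SDs of 0.460 and 0.435 FPKM. *Csf1* fell by 0.20 on the log2 scale (SE 0.02, adjusted p = 0.000163), a ratio of 0.868. The correction for GC content and length took the fold change to -0.10 (adjusted p = 0.00938), and with the replicate number as a block in addition the adjusted p was 0.0589.

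*Vegfa* (chromosome 17, 46327919 to 46343295, minus strand) was at 33.6, 30.6, 32.1, 33.2 and 30.8 FPKM in si-Control and at 31.5, 32.2, 30.3, 33.1 and 31.6 FPKM in si-*Fndc1*. The libraries of both groups were interleaved. Its log2 fold change was -0.01 (95% interval -0.08 to 0.06, adjusted p = 0.886), which bounds a difference of *Vegfa* more tightly than that of any other member not called. *Hgf* (chromosome 5, 16758493 to 16825150, plus strand) was at 1.38, 1.39, 1.14, 1.23 and 1.64 FPKM in si-Control and at 1.60, 1.36, 1.39, 1.61 and 1.62 FPKM in si-*Fndc1*. No si-*Fndc1* library of *Hgf* lay above every si-Control library. Its log2 fold change was 0.17 (95% interval -0.03 to 0.37, adjusted p = 0.224).

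**Figure D3:**
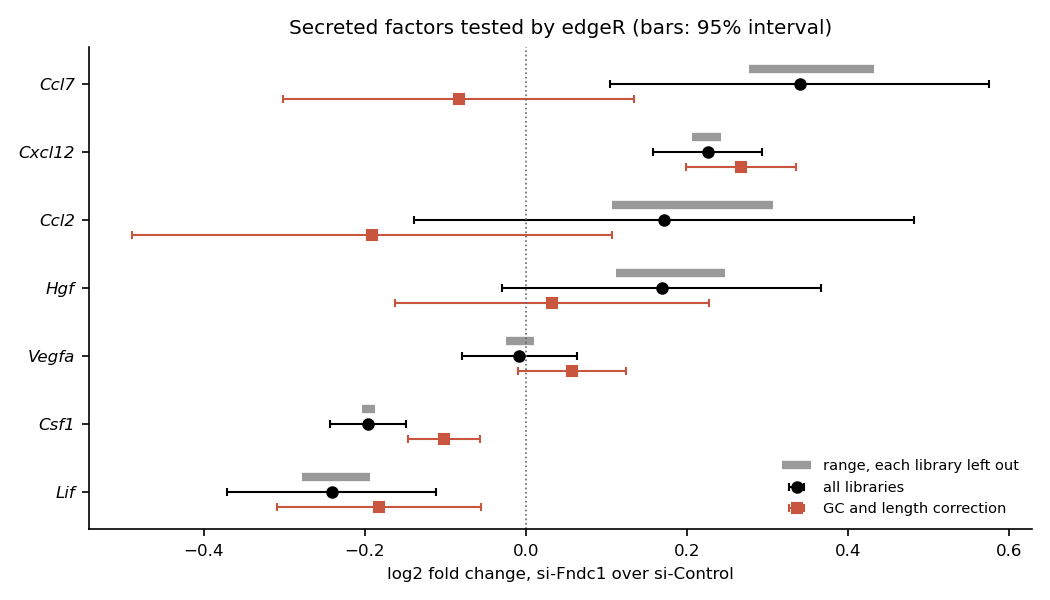
Log2 fold change of the 7 members tested by edgeR (si-*Fndc1* over si-Control, all libraries, black, and with the GC and length correction, red), with bars for the 95% interval, and the range over fits that each left out 1 library (grey). *Ccl7*, *Ccl2* and *Vegfa* are on opposite sides of 0 with and without the correction, while *Cxcl12* stays above 0 and *Csf1* and *Lif* stay below it.

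Levels per length ran over a wide range. In si-Control the order by mean FPKM was *Vegfa* (32.1), *Csf1* (27.0), *Cxcl12* (11.0), *Lif* (5.27), *Ccl7* (4.42), *Ccl2* (2.69), *Hgf* (1.36), *Cxcl5* (0.254), *Cxcl1* (0.199) and *Il6* (0.167). The ranges over libraries overlapped between *Lif* and *Ccl7*, *Ccl7* and *Ccl2*, *Cxcl5* and *Cxcl1*, and *Cxcl1* and *Il6*, and the other neighbours in the order were apart. In si-*Fndc1* *Ccl7* (5.57) stood above *Lif* (4.43) with no overlap, and *Il6* (0.467) moved from the last place to the place after *Hgf* (1.52), overlapping with *Cxcl5* (0.397). *Vegfa* and *Csf1* were above 89.5% and 87.2% of the tested genes by their mean in si-Control, *Cxcl12* above 70.0%, and *Hgf* above 17.3%.

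RNA of the receptors of these factors was uneven, and several of the best known receptors were at or near 0. Of 18 receptor genes, 8 were tested, *Ccr3*, *Cxcr2* and *Ackr1* had no count in any library, and *Ccr1*, *Ccr2*, *Ackr2* and *Kdr* had at most 15 counts in any library. *Csf1r*, the receptor of CSF1, was at a mean of 0.0527 FPKM in si-Control and 0.0913 FPKM in si-*Fndc1* (14 to 53 counts per library), and *Flt1* was at 0.0773 and 0.0716 FPKM. The CXCL12 receptors *Cxcr4* (19.5 ± 1.26 FPKM in si-Control, SD, n = 5) and *Ackr3* (9.44 ± 0.332 FPKM), the gp130 gene *Il6st* (15.6 ± 3.41 FPKM), *Lifr* (10.4 ± 0.537 FPKM), *Il6ra* (1.55 ± 0.0793 FPKM), the VEGF co-receptors *Nrp1* (4.21 ± 0.140 FPKM) and *Nrp2* (21.3 ± 0.843 FPKM), and *Met* (3.98 ± 0.556 FPKM) were all measured well above the limit.

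Of the 8 tested receptors 3 fell in si-*Fndc1*, against 17.2% of all tested genes called lower. None rose, at an unadjusted p under 0.05 or by DESeq2 either, which called 4 lower. The median log2 fold change of the 8 was -0.16, against 0.004 over all tested genes. *Lifr*, which pairs with gp130 to bind LIF, was at 10.9, 9.59, 10.0, 10.7 and 10.6 FPKM in si-Control and at 8.43, 8.44, 8.06, 8.24 and 8.36 FPKM in si-*Fndc1*. The groups of *Lifr* were clearly separate, with a log2 fold change of -0.31 (SE 0.04, adjusted p = 0.000143), and it kept its call in all 20 alternatives (-0.34 to -0.28). *Nrp2* fell by 0.21 on the log2 scale (SE 0.03, adjusted p = 0.00110), and the value was -0.064 with the GC and length correction (adjusted p = 0.136). *Il6st* was at 13.5, 13.7, 14.0, 15.0 and 21.6 FPKM in si-Control and at 12.3, 12.8, 11.8, 12.5 and 11.9 FPKM in si-*Fndc1*. Its groups were separate, but si-Control replicate 5 stood far above the others. The log2 fold change of *Il6st* was -0.34 (adjusted p = 0.0448) with all libraries and -0.19 (adjusted p = 0.00544) without si-Control replicate 5, and the call was lost without si-Control replicate 4 or any one of the si-*Fndc1* libraries (adjusted p = 0.0590 to 0.0875). With the GC and length correction *Il6st* was not called either (-0.27, adjusted p = 0.106). *Cxcr4* (-0.18, 95% interval -0.32 to -0.03, adjusted p = 0.0924) and *Met* (-0.15, 95% interval -0.31 to 0.02, adjusted p = 0.201) did not pass the test. The corrected fit also called 3 receptors lower, *Lifr*, *Cxcr4* (-0.35, adjusted p = 0.00252) and *Nrp1* (-0.16, adjusted p = 0.0190), so that *Lifr* alone was called in both. *Cxcr4* and *Nrp1* were singled out here after their values were seen.

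**Figure D4:**
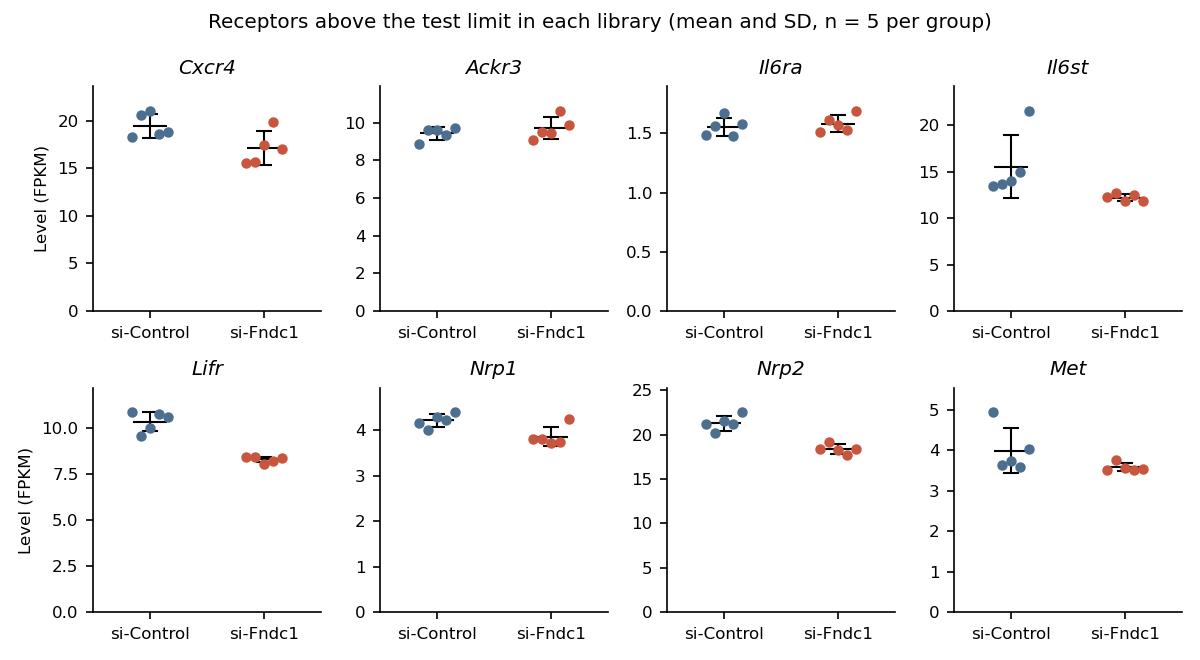
Level of the 8 tested receptor genes (FPKM, linear axis from 0, a separate scale for each gene) in the 5 si-Control and 5 si-*Fndc1* libraries, with mean and SD. *Lifr*, *Nrp2* and *Il6st* are separate between the groups, and the wide SD of *Il6st* in si-Control comes from replicate 5 at 21.6 FPKM.

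The genes around the members were taken in lists by role, 132 genes in all, of which 82 were tested. Of the 82, 12 were called higher and 20 lower, and with the GC and length correction 5 were called higher and 8 lower of 81. Over all tested genes 17.3% were called higher and 17.2% lower, and with the correction 11.9% and 11.3%. The counts of each list are to be read against these shares, and no list was tested as a set. In the list of IL-6 family signalling, 4 of 12 tested genes fell, with a median of -0.16 over the list, and none rose by edgeR, by DESeq2 or at an unadjusted p under 0.05. With the GC and length correction 2 were called lower and 1 higher, with a median of -0.006. The phosphatase gene *Ptpn11*, which links gp130 to the MAP kinase pathway, fell by 0.20 on the log2 scale (SE 0.03, adjusted p = 0.000411), the STAT3 inhibitor *Pias3* fell by 0.28 (adjusted p = 0.00297) and *Stat5b* fell by 0.23 (adjusted p = 0.00803). With the correction *Ptpn11* was still called (-0.11, adjusted p = 0.00806), and *Pias3* (-0.12, adjusted p = 0.116) and *Stat5b* (-0.12, adjusted p = 0.0981) were not. The other 2 genes called in the corrected fit, named after their values were seen, were the kinase gene *Jak2* (-0.16, adjusted p = 0.0188) and *Socs2*, a suppressor of cytokine signalling (0.17, adjusted p = 0.00208).

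NF-kB is the factor that switches on many chemokine genes and *Il6* after inflammatory signals. In the list of its subunits, inhibitors and kinases and of related immediate regulators, 1 of 19 tested genes rose and 6 fell, with a median of -0.11. *Chuk*, the gene of the kinase IKK-alpha, rose by 0.31 (SE 0.05, adjusted p = 0.000672), *Ikbkb*, that of IKK-beta, fell by 0.24 (adjusted p = 0.00497), and the inhibitor gene *Nfkbib* fell by 0.33 (adjusted p = 0.00406). None of these 3 was called with the GC and length correction, which gave 0.11 for *Chuk*, 0.042 for *Ikbkb* and -0.17 for *Nfkbib* (adjusted p = 0.117, 0.608 and 0.0615). In that fit 1 of 18 genes of the list was lower, and the median was -0.02. The gene, named after its values were seen, was the subunit gene *Rel* (-0.23, adjusted p = 0.0393).

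Other cytokines and growth factors moved in both directions. Of 18 tested genes of 25, 5 rose and 3 fell, with a median of 0.07, and with the GC and length correction 1 was called higher and 1 lower, with a median of 0.03. *Il1b*, an inflammatory cytokine that acts upstream of several of these chemokines, was at 0.827 ± 0.119 FPKM in si-Control and 1.37 ± 0.209 FPKM in si-*Fndc1* (SD, n = 5 each), separate between the groups, with a log2 fold change of 0.73 (SE 0.15, adjusted p = 0.00319) and of 0.49 with the correction (adjusted p = 0.0230). *Il34*, the second ligand of the CSF1 receptor, fell from 3.18 ± 0.0407 to 2.55 ± 0.251 FPKM (SD, n = 5 each), by 0.31 on the log2 scale (adjusted p = 0.0150), in the same direction as *Csf1*, and with the correction its fold change was -0.27 (adjusted p = 0.0282). With the replicate number as a block *Il34* was not called (adjusted p = 0.0533). *Pdgfb* fell by 0.34 (adjusted p = 0.00183), and was at -0.09 with the correction (adjusted p = 0.311). The chemokine genes outside the clusters held 4 tested genes of 20. None was called by edgeR or DESeq2, 1 had an unadjusted p under 0.05, and *Ccl25* (-0.27, adjusted p = 0.0684), *Cxcl14* (-0.13, adjusted p = 0.313) and *Cx3cl1* (-0.02, adjusted p = 0.880) had the smallest p-values.

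*Vegfa* is a classic target of the hypoxia-inducible factor HIF-1. In the list of the hypoxia response, 5 of 18 tested genes rose and 4 fell, with a median of 0.01, and with the GC and length correction 2 were called higher and 1 lower, with a median of 0.04. *Hif1a* itself rose from 28.7 ± 0.522 to 34.8 ± 1.32 FPKM (SD, n = 5 each), a log2 fold change of 0.29 (SE 0.03, adjusted p = 8.87e-05), and the mitophagy receptor gene *Bnip3* rose by 0.40 (adjusted p = 0.000178), while *Egln2*, which encodes a prolyl hydroxylase that marks HIF for destruction, fell by 0.26 (adjusted p = 0.00242). With the correction *Hif1a* was at 0.12 (adjusted p = 0.0211), *Bnip3* at 0.09 (adjusted p = 0.300) and *Egln2* at -0.03 (adjusted p = 0.700), and the other 2 genes called, named after their values were seen, were *Egln1* (0.21, adjusted p = 0.0137) and *Arnt* (-0.17, adjusted p = 0.00848). *Vegfa* did not pass the test, with the interval given above.

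HGF is secreted as a precursor that serine proteases cleave, and 2 of 9 genes of its processing were tested. Neither was called by edgeR or DESeq2, and 1 had an unadjusted p under 0.05. The log2 fold change was 0.11 for *Plau* (adjusted p = 0.0755) and 0.09 for *Plat* (adjusted p = 0.190), the urokinase and tissue plasminogen activator genes. *F12*, a protease gene of liver that was singled out after its values were seen, was listed at the value for no count in all 5 si-Control libraries and had a mean of 0.493 FPKM in si-*Fndc1*, beside the liver transcripts described above.

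**Figure D5:**
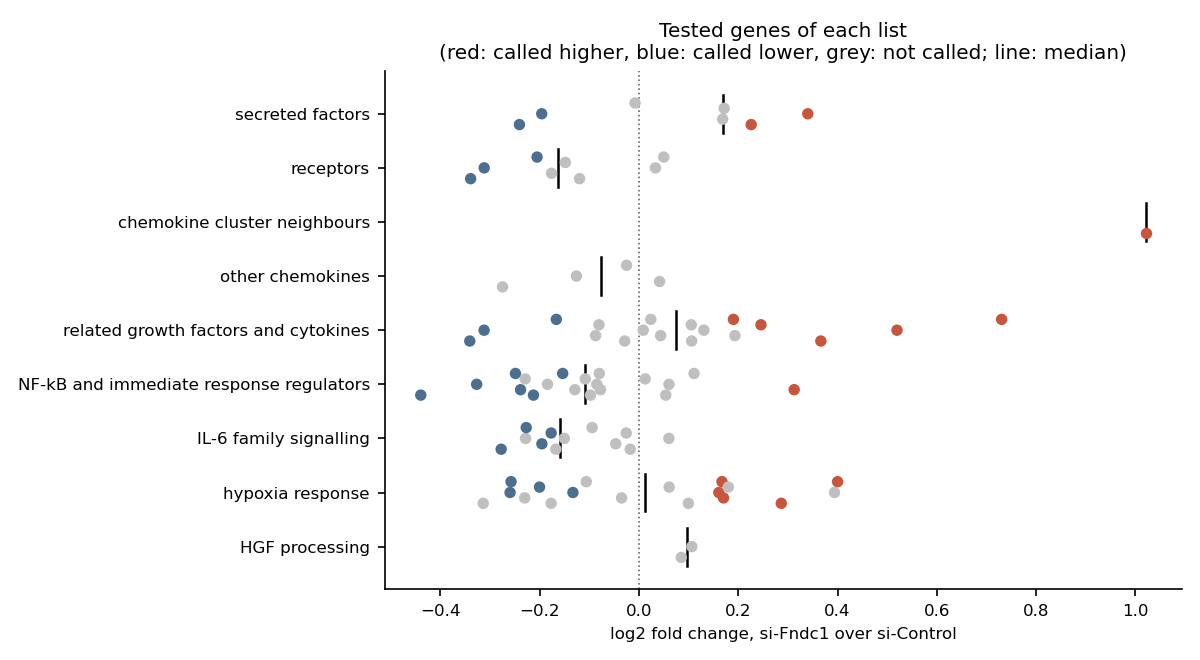
Log2 fold change (si-*Fndc1* over si-Control) of every tested gene of the 10 secreted factors and of each list, with called genes in colour and the median of each list as a line. The tested receptors lie mostly below 0 with a median of -0.16, and the 18 tested genes of the hypoxia response lie on both sides of 0 with a median of 0.01.

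Members of lower transcript GC content tended to have higher ratios, the direction also seen over all tested genes. The cause of this trend was not tested. Over the 11185 tested genes with a GC content, log2 fold change and GC content had a Spearman correlation of -0.525 across genes, which are not independent replicates, and of -0.00171 after the correction. The 6 members of lowest GC content, from *Il6* (35.1%) and *Cxcl5* (38.4%) to *Cxcl1* (45.1%), had ratios of mean FPKM of 1.12 to 2.80. The 3 of highest GC content, *Lif* (52.9%), *Vegfa* (53.2%) and *Csf1* (53.7%), had ratios of 0.841, 0.989 and 0.868. *Cxcl12* (49.2%) lay between them.

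Promoters are shown for the members whose groups did not overlap, *Il6*, *Csf1*, *Lif* and *Cxcl12*, and for *Cxcl1*, the member with the most NF-kB motifs. RefSeq promoters (GRCm38.p6, 250 bases before to 50 after the start) were found for 7 of the 10 members. *Il6* is at chr5:30012864-30013163 (plus strand), *Cxcl1* at chr5:90890995-90891294 (plus), *Csf1* at chr3:107760420-107760719 (minus), *Lif* at chr11:4257318-4257617 (plus) and *Cxcl12* at chr6:117168285-117168584 (plus). Capitals mark matches, on either strand, to NF-kB (GGGNNNTTCC), STAT (TTCNNNGAA), AP-1 (TGANTCA), the HIF core (ACGTG) and the TATA box (TATAAA).
Il6: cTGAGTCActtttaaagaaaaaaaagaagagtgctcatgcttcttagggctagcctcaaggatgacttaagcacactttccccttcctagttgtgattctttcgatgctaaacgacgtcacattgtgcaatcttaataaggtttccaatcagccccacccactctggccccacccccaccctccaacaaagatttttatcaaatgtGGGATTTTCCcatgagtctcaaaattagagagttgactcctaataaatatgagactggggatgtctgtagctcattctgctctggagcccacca
Cxcl1: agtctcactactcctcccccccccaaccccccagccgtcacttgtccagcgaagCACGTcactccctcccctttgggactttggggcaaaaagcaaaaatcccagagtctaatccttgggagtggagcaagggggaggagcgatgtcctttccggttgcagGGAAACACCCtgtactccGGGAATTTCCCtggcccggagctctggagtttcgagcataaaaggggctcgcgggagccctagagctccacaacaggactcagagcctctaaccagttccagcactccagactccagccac
Csf1: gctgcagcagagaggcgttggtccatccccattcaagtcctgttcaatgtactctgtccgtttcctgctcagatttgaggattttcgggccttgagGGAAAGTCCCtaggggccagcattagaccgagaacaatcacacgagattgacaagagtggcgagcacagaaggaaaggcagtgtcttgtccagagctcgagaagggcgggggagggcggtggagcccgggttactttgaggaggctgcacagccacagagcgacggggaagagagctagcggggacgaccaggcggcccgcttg
Lif: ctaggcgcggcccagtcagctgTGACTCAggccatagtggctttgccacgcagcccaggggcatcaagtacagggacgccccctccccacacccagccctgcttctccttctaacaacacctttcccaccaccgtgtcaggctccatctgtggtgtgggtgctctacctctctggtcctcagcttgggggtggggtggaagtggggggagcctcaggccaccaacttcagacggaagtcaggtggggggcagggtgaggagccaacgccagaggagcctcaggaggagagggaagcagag
Cxcl12: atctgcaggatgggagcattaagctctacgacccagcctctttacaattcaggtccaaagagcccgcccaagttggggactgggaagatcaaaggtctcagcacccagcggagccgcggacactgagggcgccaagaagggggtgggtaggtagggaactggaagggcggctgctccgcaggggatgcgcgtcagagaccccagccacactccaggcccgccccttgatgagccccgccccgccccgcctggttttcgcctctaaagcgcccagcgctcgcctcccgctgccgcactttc
The NF-kB motif was in 3 of the 7 members (*Il6*, *Cxcl1* and *Csf1*), against 5.56% of all 32851 promoters, and AP-1 in 2 (*Il6* and *Lif*), against 7.81%. A member was counted if any of its promoters matched, and *Vegfa* and *Hgf* had 2 promoters each, whereas the shares are per promoter. In *Il6* the NF-kB match lay at positions -44 to -35, counted back from the start, and the AP-1 match at -249 to -243. *Cxcl1* had 3 NF-kB matches, at -89 to -80, -71 to -62 and -70 to -61, of which the last 2 overlap on opposite strands, and a HIF core at -196 to -192. The match of *Csf1* was at -154 to -145 on the opposite strand and the AP-1 match of *Lif* at -228 to -222. The HIF core was in 2 members (*Cxcl1* and the second promoter of *Vegfa*), against 19.6% of all promoters, and STAT (8.30% of all) and TATA (13.6% of all) letters were in none of the 7. *Cxcl12* and *Hgf* held none of the 5 motifs in these windows. A match of letters is a description and not a site: among the 3 members with the NF-kB letters, *Il6* was higher in si-*Fndc1*, *Csf1* was lower, and *Cxcl1* overlapped between the groups.

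The members did not vary as a block from library to library. Deviations of log2(CPM + 0.5) from the group mean, over the 10 libraries, correlated most between *Cxcl1* and *Cxcl5* (Pearson r = 0.52) and between *Ccl2* and *Il6* (0.50), and least between *Ccl2* and *Cxcl12* (-0.78) and *Csf1* and *Il6* (-0.74). *Ccl2* and *Cxcl12* deviated oppositely within both groups (-0.93 in si-Control and -0.69 in si-*Fndc1*), as did *Csf1* and *Il6* (-0.81 and -0.61), whereas *Cxcl1* and *Cxcl5* ran together in si-*Fndc1* (0.83) and oppositely in si-Control (-0.55). The pairs were picked by their value over all 10 libraries, which holds the same deviations, and a value within a group rests on 5 libraries. All these values describe libraries that share depth and composition. The neighbours *Ccl2* and *Ccl7* had an r of 0.17. The spread of these deviations was smallest for *Csf1* (SD 0.0202), *Cxcl12* (0.0487) and *Vegfa* (0.0537) and largest for *Cxcl1* (0.281) and *Il6* (0.282), the members with the fewest counts. Among 13547 other tested genes, the deviations most like those of *Csf1* were of *Mcm8* (0.95), those of *Ccl7* of *Gdpgp1* (0.95), those of *Ccl2* of *Gm11868* (0.95), those of *Lif* of *Acad10* (0.94), those of *Vegfa* of *Tsku* (0.94) and those of *Hgf* of *Gm37963* (0.95). Each is the largest of 13547 values over only 10 libraries, a search that gives high values to unrelated genes too. No shared control is read from them.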

How the data were processed

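C2C12 cells under si-Control and si-*Fndc1* were sequenced, 5 libraries each, grouped by label. For 55359 genes the authors deposited read counts without normalization and FPKM values, listed as 0.0001 where no read was counted. The methods name TopHat, mm10 and htseq-count, the series description STAR and mm9, and the submitters' processing notes cutadapt 1.9, FastQC and GRCm39. The table names no build, and its coordinates are printed as listed. It lists *Ccl7* from 81936538, whereas the NCBIM37 (mm9) window begins at 81859358. *Il6* is listed from 30218112, whereas its GRCm38 (mm10) promoter is at 30012864 to 30013163. Of the builds named, GRCm39 is thus the one left for these coordinates. How FPKM was computed and whether strand was used are not given in the sources used here. All 10 libraries were used, although the methods name 4 without saying which. Within each group, counts differed between any pair of libraries beyond sampling noise (chi-square divided by its degrees of freedom, 43.0 to 80.4).

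Counts were tested with edgeR 4.0.16 in R 4.3.3 (quasi-likelihood, TMM, no replicate term, Benjamini-Hochberg adjustment) for genes with a mean of at least 0.5 FPKM, after a test on simulated data. Members under that limit were compared by exact permutation of FPKM. Alternatives were DESeq2 1.42.0 (the study's tool), upper-quartile scaling, other limits on the level, limma 3.58.1 on log2(FPKM + 1) and log2(FPKM + 0.1), a replicate block, each library left out, and a correction by the trend of log counts with GC content and length in each library (robust splines of 5 degrees of freedom, for the 82.6% of tested genes with a GC content from NCBIM37 transcripts). The fits from 0.1 FPKM, the fit without the correction on the same genes, and for members under the limit the fit without a limit and the left-out libraries, were added after seeing the data. The members and lists were chosen with earlier results of these data known. Named genes are the members, *Fndc1*, the 3 genes of smallest p in each list, cluster neighbours, list genes without a count and, for each tested member, the gene whose deviations were most like its own, except that results for 2 of the named genes are not reported here. Outside this rule, other receptors of the list are named too, as are *Rel*, *Jak2*, *Socs2*, *Egln1*, *Arnt* and *F12*. Reads shared by near-identical or overlapping genes, and by antisense genes, cannot be told apart here. Marker lists covered muscle, leukocytes, endothelium, fibroblasts (9 genes, of 7 tested 2 were higher and 3 lower) and liver. The standard error of an edgeR fold change was taken from its F statistic (the absolute log2 fold change over √F), and 95% intervals span 1.96 times that error on each side, which is slightly narrow with 5 libraries a group.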

Additional observations from a re-analysis of the deposited data

Results flagged for a closer look

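A sample far from the other 4 of its group, by Dixon's test for 5 samples, was found in 5 of 62 groups checked over 31 genes, and chance alone gives about 1 in 20. For *Cxcl12*, si-Control replicate 2 was at 10.4 FPKM with the others at 11.0 to 11.2 FPKM, and without it the log2 fold change was 0.21. For *Il6st*, si-Control replicate 5 was at 21.6 FPKM with the others at 13.5 to 15.0 FPKM. For *Cx3cl1*, si-*Fndc1* replicate 5 was at 2.16 FPKM with the others at 2.74 to 2.86 FPKM. For *Ptpn11*, si-*Fndc1* replicate 4 was at 32.4 FPKM with the others at 34.3 to 34.6 FPKM. For *Hif1a*, si-Control replicate 5 was at 27.7 FPKM with the others at 28.8 to 29.0 FPKM. Of the 10 members, *Cxcl12* alone was among these. The cause was not tested.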

How the results depend on the processing

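Under the GC and length correction, with and without a replicate block, 1 member was called higher in place of 2. Of the lower calls 1 was left with the correction and 0 with the correction and the block, where edgeR gave *Csf1* an adjusted p of 0.0589 and *Lif* 0.128. The block alone also left 1 higher call, without *Ccl7* (adjusted p = 0.0979), and changed no lower call of a member. Fits that each left out 1 library gave 1 to 2 higher calls and 2 lower calls of members. Of the list genes, 12 higher and 20 lower calls became 5 and 8 with the correction and 2 and 6 with the block added, and 10 to 12 and 16 to 20 with 1 library left out. Over all genes, the correction left 2605 calls and the correction with block 1762 of 11185 genes, against 4244 without either on the same genes and 4663 of 13548 in the report.

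Directions turned under the correction, without and with the block, for *Ccl2* (-0.19 and -0.19), *Ccl7* (-0.083 and -0.073), *Vegfa* (0.058 and 0.058), *Cx3cl1* (0.15 and 0.15), *Ikbkb* (0.042 and 0.040) and *Plau* (-0.039 and -0.039). *Vegfa* was at 0.0096 with upper-quartile scaling and at -0.025 to 0.011 with 1 library left out, and *Cx3cl1* at -0.075 to 0.044. The cause was not tested. Under the level limit, *Cxcl5*, with an unadjusted exact p under 0.05, was not called by edgeR without a limit (log2 fold change 0.65), from 0.1 FPKM (0.66, adjusted p = 0.0763) or with the correction there (0.26, adjusted p = 0.569), and its log2 ratio ran from 0.46 to 0.78 with 1 library left out. That of *Cxcl1* ran from 0.50 to 0.89, with an exact permutation p = 0.0317 without si-*Fndc1* replicate 5, and that of *Il6* from 1.29 to 1.80 with the smallest p possible each time. Of other named genes, *Il6st* lost its call in 13 of 20 alternatives, *Il34* with the block, and *Ccl8*, *Il34*, *Il1b* and *Hif1a* with the correction and block (adjusted p = 0.0544, 0.0875, 0.0914 and 0.0681 by edgeR). *Cxcl12* and *Lifr* kept direction and call in all 20 alternatives each.

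Replicate numbers were not shown to pair the libraries. Same-numbered libraries deviated with correlations of -0.0427 to 0.0548 over 13548 genes, and 1 of 5 si-Control libraries correlated best with its own number. Depth limits *Cxcl1*, *Cxcl5* and *Il6*, measured with 14 to 100 counts a library.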
